A study of Mus musculus with 4 samples.

Results

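Microglia are the resident macrophages of the brain, and perivascular and meningeal macrophages line its vessels and membranes. The levels of 31 genes that such cells express were compared between the brains of Adar2-/- and wild-type mice. The members were picked out by gene symbol, from a list drawn up with earlier results of these data known, of receptors, signalling proteins, complement chains, lysosomal proteins and surface markers of these cells, and 33 transcript clusters of the 33793 on the array carried 1 of those symbols. Each cluster is a set of probes laid out for 1 transcribed region, and Selplg and Irf8 had a second cluster each. All 33 clusters lay over the RefSeq span of their gene, on 16 chromosomes, with 8 to 29 probes each.

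The arrays held whole-brain total RNA of adult female mice of strain 129SV, from 2 wild-type and 2 Adar2-/- animals. ADAR2, encoded by Adarb1, is an enzyme that changes adenosine to inosine in double-stranded RNA. Per the study's methods the animals were siblings from crosses of Adarb1 heterozygotes, and both genotypes carried the pre-edited Gria2 R/R allele, which rescues the early death of Adar2-/- mice. Both genotypes therefore differ from an unmodified mouse at Gria2, and every difference reported here is between animals that share that allele. No array was made from sorted cells, so microglial transcripts were measured against the RNA of all other brain cells. In such bulk samples fewer cells of a type and less RNA per cell cannot be told apart.

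Microglia depend on the CSF1 receptor for survival and on the transcription factor PU.1 for their identity. In the healthy brain they carry purinergic and fractalkine receptors that sense signals from neurons, and they supply the C1q that starts the classical complement pathway. On contact with debris they signal through TREM2 and its adaptor TYROBP, and border macrophages carry scavenger receptors such as CD163 and the mannose receptor.

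The targeted gene was checked first. Adarb1 (chromosome 10, 77290726 to 77418273, minus strand) had log2 signals of 10.50 and 10.45 in wild type and of 9.16 and 8.96 in the knockout. Its difference, knockout minus wild type, was -1.415 (SE 0.118, limma adjusted p = 0.409). The median signal of all clusters was 6.03 and 6.06 in wild-type arrays 1 and 2 and 6.09 and 6.08 in knockout arrays 1 and 2. Of the 33 microglia and macrophage clusters, 31 had all 4 signals above 5.43, the highest signal of 7 Y-linked clusters, whose genes female mice lack. The exceptions were Cd163 and the second Irf8 cluster, so a level above background was not shown for these. Knockout array 1 stood apart in transcripts of salivary gland, with Bpifa2, a salivary protein, at 12.61 there and at 5.09 to 5.28 on the other 3 arrays. Prl, the pituitary hormone prolactin, was at 10.11 and 9.66 in the knockout and at 6.55 and 4.99 in wild type. The main values that moved when knockout array 1 was left out are given below without it too.

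The promoters of myeloid genes often hold purine-rich sites of PU.1, so the letters GAGGAAG were searched on both strands of the RefSeq promoters (GRCm38.p6, 250 bases before to 50 bases after each start). A match on the opposite strand reads CTTCCTC. Of the 31 genes 24 had a promoter in the table, and 9 of these 24 (37.5%) held a match, compared with 4152 of 27025 genes (15.4%) overall. Counted by promoter, 10 of 28 (35.7%) held one, compared with 4477 of 32851 (13.6%). C1qa, Cd74, Csf1r, Gpr34, Selplg, Tmem119 and Tyrobp had no entry. Windows of 27 bases around matches are shown for 7 members whose values are described below, with the matched letters in capitals, each read 5′ to 3′ on the strand of its gene.
Trem2, chr17:48346350-48346376, plus strand: gcctcctttcCTTCCTCcctccctcac
P2ry13, chr3:59210914-59210940, minus strand: aaggggaaatGAGGAAGgaaaagcagt
Fcrls, chr3:87263652-87263678, minus strand: agtctgtaaaGAGGAAGgacgtttgct
C1qc, chr4:136893092-136893118, minus strand: acggcagacaCTTCCTCattttggcac
Fcgr3, chr1:171059394-171059420, minus strand: agtccatttcCTTCCTCtttttgtagt
Ctss, chr3:95526775-95526801, plus strand: tgaaagttcaCTTCCTCattgtggatg
Laptm5, chr4:130913267-130913293, plus strand: cagcctgtggCTTCCTCttttttgttc
Itgam and Mrc1 held 2 matches each. A match is a description of the letters and not a measured binding site. The 7 genes shown included negative differences, such as that of Trem2, and positive ones, such as that of Laptm5, as given below.

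Most of the microglia and macrophage clusters had a slightly lower mean in the knockout, and no single cluster passed the adjusted test. The difference was below 0 for 24 of 33 clusters (72.7%), compared with 47.7% of all clusters, and for 19 of the 33 without knockout array 1. The median difference was -0.085 on the log2 scale, compared with 0.005 over all clusters. By limma with Benjamini-Hochberg adjustment over the whole array, 0 of 33 passed an adjusted p below 0.05, as did 0.0% of all clusters. At an unadjusted p below 0.05, 2 clusters were lower, Olfml3 and Cd68, and 0 were higher. Over the array 2.31% of clusters were lower and 3.64% higher by that rule, and 2 of 33 is 6.06%. Adjusted p-values of the 33 clusters ranged from 0.834 to 0.994.

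The separation of the genotypes was also counted without a model. Both knockout signals lay below both wild-type signals in 10 of 33 clusters (30.3%), compared with 16.5% of all clusters. Both lay above in 4 (12.1%), compared with 17.7% of all clusters, and in 19 the genotypes overlapped. The members are brighter than most of the array, and among clusters above the median mean signal the background was itself shifted, with a median difference of -0.025, 57.3% of differences below 0 and 21.9% of clusters with the knockout below. For the 26 clusters of the members in that range the median was -0.09, and 20 of the 26 differences were below 0.

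The differences were of about the same size as the spread between replicate arrays. The median absolute difference between genotypes was 0.12 for these clusters, and that between replicate arrays was 0.13 in wild type and 0.10 in the knockout. The difference between genotypes exceeded both replicate differences in 6 of 33 clusters (18.2%), compared with 23.1% of all clusters. The standard errors ran from 0.102 to 0.21, so that the 95% intervals of single clusters reached from -0.873 at the lowest to 0.785 at the highest. The smallest two-sided p that exact permutation of 2 against 2 arrays allows is 0.333. Knockout array 1 held the lowest of the 4 signals in 16 of the 33 clusters (48.5%), compared with 21.6% of all clusters, and knockout array 2 held it in 4. Without knockout array 1 the median difference of the 33 clusters was -0.025.

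**Figure D1:**
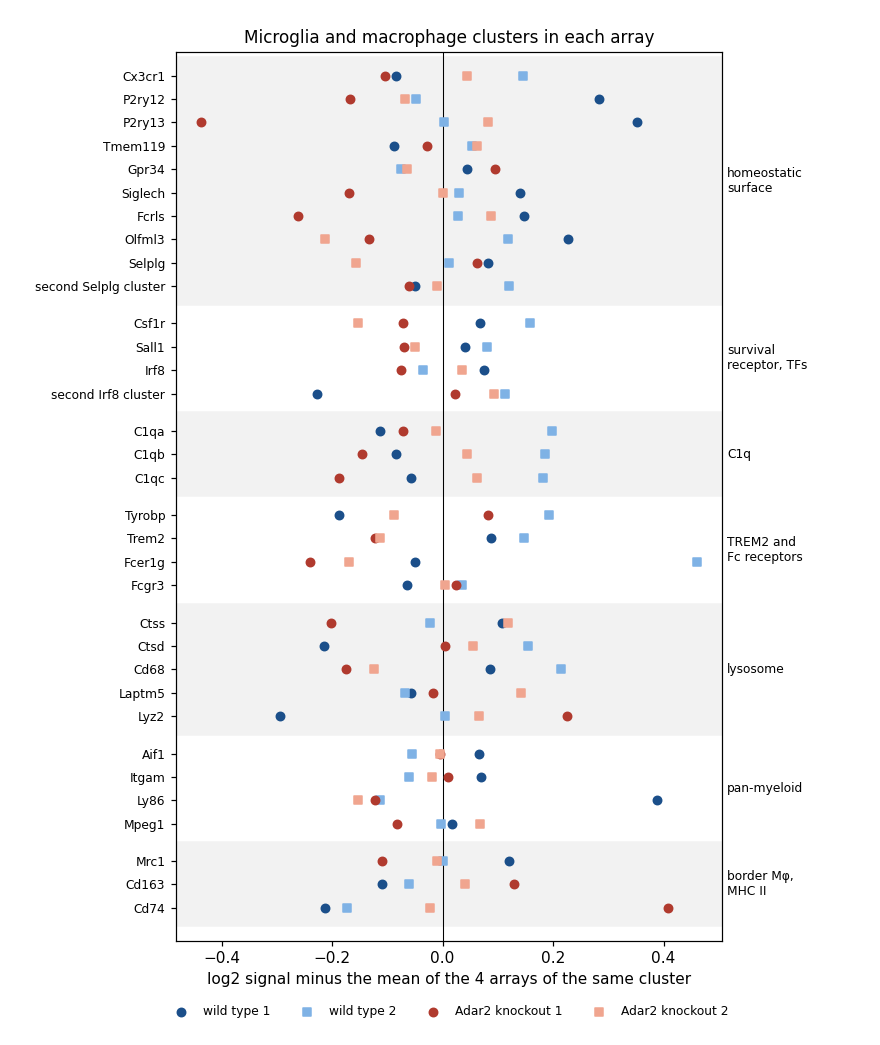
Log2 signal of each of the 33 microglia and macrophage clusters on the 4 arrays, as the distance from that cluster's mean over the arrays, with clusters grouped by the role of the protein. In 10 clusters both knockout signals lie below both wild-type signals and in 4 both lie above.

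Among the receptors and surface proteins of resting microglia, 8 of 10 differences were below 0, with a median of -0.132, which was -0.0675 without knockout array 1. Olfml3 encodes a secreted olfactomedin-like protein that is enriched in microglia. Its signals were 8.42 and 8.31 in wild type and 8.06 and 7.98 in the knockout. All knockout signals were below all wild-type signals, and the difference was -0.345 (SE 0.108, 95% interval -0.613 to -0.077, limma adjusted p = 0.834), a fold of 0.787. The Olfml3 cluster (chromosome 3, 103722222 to 103738001) extends beyond the RefSeq span of the gene. Without wild-type array 1 the difference was -0.29 and without knockout array 2 it was -0.305, and in both cases the unadjusted p no longer passed 0.05.

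The purinergic receptors P2ry12 and P2ry13, which sense extracellular nucleotides, are neighbours on chromosome 3, 5.39 kb apart in the array's coordinates. P2ry12 had signals of 8.31 and 7.98 in wild type and of 7.86 and 7.96 in the knockout. P2ry13 had signals of 8.20 and 7.85 in wild type and of 7.41 and 7.93 in the knockout. In both genes wild-type array 1 was the highest and knockout array 1 the lowest. The difference was -0.235 for P2ry12 (SE 0.143, limma adjusted p = 0.856), where the nearest signals of the genotypes were 7.98 and 7.96, and -0.355 for P2ry13 (SE 0.21, limma adjusted p = 0.854), where they overlapped. The P2ry13 difference was -0.095 without knockout array 1 and -0.615 without knockout array 2. The P2ry12 difference was -0.07 without wild-type array 1 and -0.40 without wild-type array 2, where the unadjusted p passed 0.05.

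The other genes of this group spread on both sides of 0. Siglech, a microglial receptor of the Siglec family, had signals of 6.94 and 6.83 in wild type and of 6.63 and 6.80 in the knockout. The genotypes did not overlap, and the Siglech difference of -0.17 (SE 0.117) was -0.085 without knockout array 1. Fcrls, an Fc receptor-like protein, had 6.16 and 6.04 in wild type and 5.75 and 6.10 in the knockout, and its difference of -0.175 (SE 0.148) was 0.0 without knockout array 1. The fractalkine receptor Cx3cr1 had 7.96 and 8.19 in wild type and 7.94 and 8.09 in the knockout, a difference of -0.06 (SE 0.129). For Tmem119, a membrane protein used to tell microglia from other macrophages, the signals were 7.01 and 7.15 in wild type and 7.07 and 7.16 in the knockout. Its difference of 0.035 (95% interval -0.242 to 0.312) lay near 0, as did that of the lysophospholipid receptor Gpr34 at 0.03 (95% interval -0.258 to 0.318). Selplg, the ligand of P-selectin, had a difference of -0.095 in its main cluster, on the minus strand, and -0.07 in the second cluster, on the plus strand, both with overlapping genotypes. All 10 clusters had signals above those of the Y-linked clusters on every array, and in 3 of the 10 both knockout signals were below wild type, compared with 16.5% of all clusters and 21.9% of the bright ones.

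**Figure D2:**
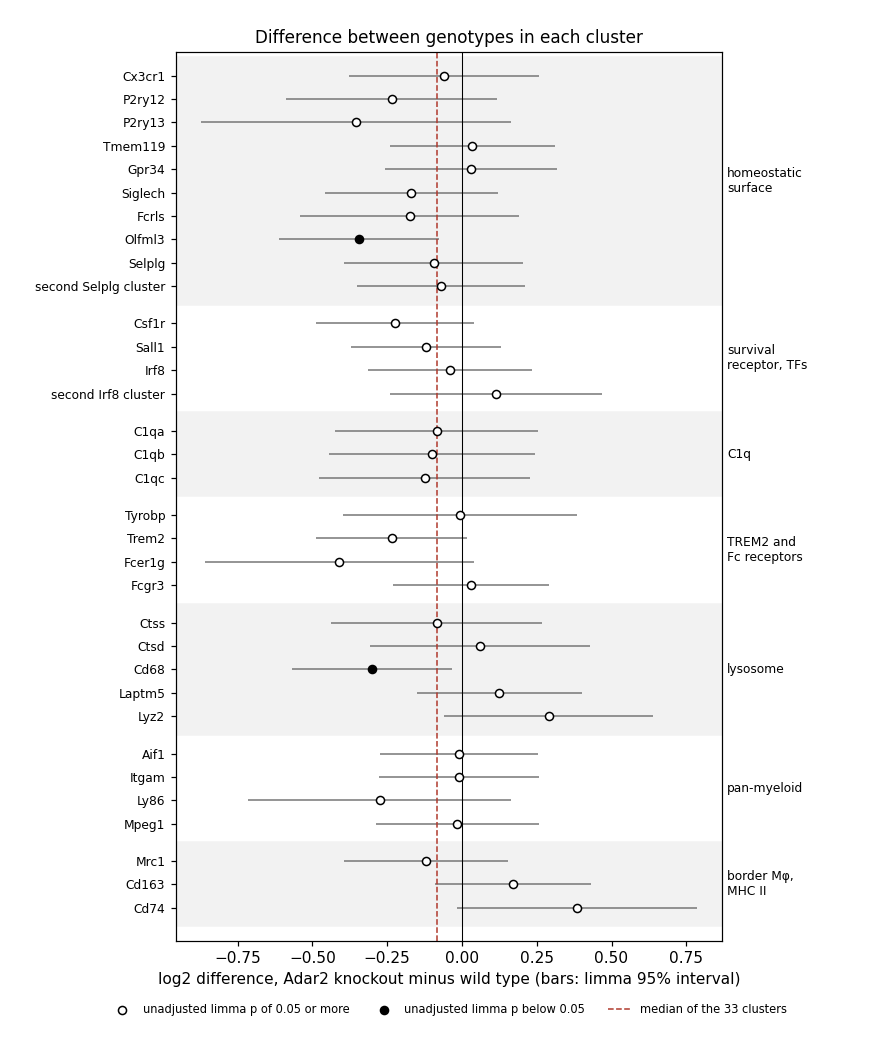
Log2 difference, knockout minus wild type, of the 33 microglia and macrophage clusters with limma 95% intervals, where filled points mark an unadjusted p below 0.05 (Olfml3 and Cd68) and the dashed line is the median of -0.085. The intervals of all other clusters include 0, and the most negative point is Fcer1g at -0.41 and the most positive Cd74 at 0.385.

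The survival receptor Csf1r, which binds CSF1 and IL-34, had signals of 9.04 and 9.13 in wild type and of 8.90 and 8.82 in the knockout. The genotypes did not overlap, and the difference was -0.225 (SE 0.107, limma adjusted p = 0.835). Sall1, a zinc-finger factor that maintains microglial identity, had 7.45 and 7.49 in wild type and 7.34 and 7.36 in the knockout, again without overlap, and a difference of -0.12 (SE 0.102). The interferon regulatory factor gene Irf8 overlapped between genotypes in its main cluster (-0.04, SE 0.111). Its second cluster, which lies on the minus strand, opposite to the main one, and has probes that can cross-hybridize, also overlapped, at 0.115 (SE 0.143).

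The 3 chains of complement C1q, which binds antibody complexes and synapses marked for removal, are encoded side by side on chromosome 4 from 136880129 to 136898844. C1qa had signals of 8.29 and 8.60 in wild type and of 8.33 and 8.39 in the knockout. C1qb had 10.07 and 10.34 in wild type and 10.01 and 10.20 in the knockout, and C1qc had 7.59 and 7.83 in wild type and 7.46 and 7.71 in the knockout. In all 3 genes array 2 of a genotype was above array 1, and the genotypes overlapped. The differences of -0.085, -0.10 and -0.125 (SE 0.137, 0.14 and 0.143) were smaller than the gap between the wild-type arrays in each gene. The median of the 3 chains was -0.10, and with 1 array left out it was -0.005 without knockout array 1, -0.195 without knockout array 2, -0.24 without wild-type array 1 and 0.035 without wild-type array 2.

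TREM2 is a lipid-sensing receptor that signals through the adaptor TYROBP, and the Fc receptor gamma chain encoded by Fcer1g is the adaptor of activating Fc receptors. Trem2 had signals of 8.26 and 8.32 in wild type and of 8.05 and 8.06 in the knockout. The arrays of a genotype lay within 0.06 of each other and the genotypes did not overlap, with a difference of -0.235 (SE 0.102, 95% interval -0.488 to 0.018, limma adjusted p = 0.835). Fcer1g had 8.58 and 9.09 in wild type and 8.39 and 8.46 in the knockout, and its difference of -0.41 was the largest in size among the 33 clusters (SE 0.182, 95% interval -0.859 to 0.039, limma adjusted p = 0.835). The wild-type arrays of Fcer1g were themselves 0.51 apart, and the difference was -0.155 without wild-type array 2 and -0.665 without wild-type array 1.

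The partners of these genes had differences near 0. Tyrobp had 8.68 and 9.06 in wild type and 8.95 and 8.78 in the knockout, a difference of -0.005 (SE 0.158, limma adjusted p = 0.994). Fcgr3, an Fc receptor that pairs with the gamma chain and lies 165 kb from Fcer1g on chromosome 1, had 6.62 and 6.72 in wild type and 6.71 and 6.69 in the knockout, a difference of 0.03 (SE 0.105). Both overlapped between genotypes, and whether either differs from Trem2 or Fcer1g was not tested.

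Of the lysosomal proteins, Cd68, a heavily glycosylated membrane protein of macrophage lysosomes, was the second cluster with an unadjusted p below 0.05. Its signals were 8.48 and 8.61 in wild type and 8.22 and 8.27 in the knockout. The genotypes did not overlap, and the difference was -0.30 (SE 0.109, 95% interval -0.568 to -0.032, limma adjusted p = 0.834), a fold of 0.812. The unadjusted p no longer passed 0.05 without wild-type array 2 (-0.235), knockout array 1 (-0.275) or knockout array 2 (-0.325). No other lysosomal gene had an unadjusted p below 0.05. The proteases cathepsin S and cathepsin D overlapped, with Ctss at -0.085 (SE 0.143) and Ctsd at 0.06 (SE 0.149). Laptm5, a lysosomal membrane protein of blood-derived cells, had 6.15 and 6.14 in wild type and 6.19 and 6.35 in the knockout, a difference of 0.125 (SE 0.111), which was 0.045 without knockout array 2. Lyz2, the lysozyme of macrophages, had 6.46 and 6.76 in wild type and 6.98 and 6.82 in the knockout. Its difference was 0.29 (SE 0.142, limma adjusted p = 0.835) without overlap, and it rests on 8 probes, which the deposited table does not mark as able to cross-hybridize. Without wild-type array 1 the Lyz2 difference was 0.14. The median of the 5 lysosomal genes was 0.06, and it ranged from -0.02 without wild-type array 1 to 0.12 without wild-type array 2.

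The pan-myeloid genes were near 0 in 3 of 4 cases. Aif1, the calcium-binding protein IBA1 by which microglia are stained, had 5.81 and 5.69 in wild type and 5.74 and 5.74 in the knockout, a difference of -0.01 (95% interval -0.274 to 0.254). Itgam, the integrin chain CD11b, also differed by -0.01 (95% interval -0.277 to 0.257) and the pore-forming protein gene Mpeg1 by -0.015 (95% interval -0.287 to 0.257). Ly86, a partner of a Toll-like receptor homologue, had 8.17 and 7.67 in wild type and 7.66 and 7.63 in the knockout. Its difference of -0.275 (SE 0.178) was -0.025 without wild-type array 1 and -0.525 without wild-type array 2. The intervals of Aif1, Itgam and Mpeg1 include differences the size of that of Csf1r, so at this precision a change of that size was not detectable in them.

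Among markers of border macrophages and antigen presentation, Mrc1, the mannose receptor, had 5.72 and 5.60 in wild type and 5.49 and 5.59 in the knockout, a difference of -0.12 (SE 0.111), which was -0.07 without knockout array 1. Cd163, the haemoglobin scavenger receptor, had 4.89 and 4.94 in wild type and 5.13 and 5.04 in the knockout, a difference of 0.17 (SE 0.105) within the range of the Y-linked clusters. Cd74 encodes the invariant chain that guides MHC class II molecules to their peptides. Its signals were 7.28 and 7.32 in wild type and 7.90 and 7.47 in the knockout, both knockout signals lay above wild type, and the difference was the most positive of the 33 clusters at 0.385 (SE 0.162, 95% interval -0.015 to 0.785, limma adjusted p = 0.834). Knockout array 1 supplied most of it, since the difference was 0.17 without that array and 0.60 without knockout array 2, where the unadjusted p passed 0.05. Cd74 and Csf1r lie 293 kb apart on chromosome 18 and had differences of opposite sign.

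The MHC class II genes were compared because Cd74 works with them. The median difference of the 6 genes was 0.245, and 1 (16.7%) was higher at an unadjusted p below 0.05, compared with 3.64% of all clusters. This was Ciita, the transactivator of class II genes, with 6.25 and 6.35 in wild type and 6.57 and 6.73 in the knockout (difference 0.35, SE 0.115, limma adjusted p = 0.834). H2-Ab1 had 6.39 and 6.59 in wild type and 7.12 and 6.55 in the knockout, H2-Eb1 had 6.46 and 6.57 against 7.03 and 6.40, and H2-Aa had 5.62 and 5.96 against 6.22 and 5.55. In these 3 class II chains, named after their values were seen, knockout array 1 was the highest of the 4 arrays and knockout array 2 lay within or below the wild-type range. Of the peptide-loading genes, H2-DMb1 had 4.99 and 4.97 in wild type and 5.44 and 5.10 in the knockout, both above wild type. All but the 5.44 lay within the range of the Y-linked clusters, so a level above background was not shown for H2-DMb1. H2-DMa had 8.46 and 8.24 in wild type and 7.93 and 8.41 in the knockout, with knockout array 1 the lowest and knockout array 2 within the wild-type range, and a difference of -0.18 (SE 0.185). Without knockout array 1 the median of the 6 genes was 0.06 with 1 higher, without knockout array 2 it was 0.445 with 3 higher, and without either wild-type array 0 were higher.

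That array also carried the salivary gland transcripts. The linear signal summed over 11 salivary clusters was 8020 on knockout array 1 and 504 to 536 on the other 3 arrays, and 9 of the 11 differences were above 0, with 0 passing an unadjusted limma p below 0.05 in either direction. Besides Bpifa2, Dcpp1 was at 10.20 on knockout array 1 and at 5.93 to 5.98 elsewhere, and Amy1 at 7.70 and 5.22 to 5.60. The other 8 salivary clusters were not raised on that array to such an extent, with Bhlha15 at 5.66 and 1 of 3 Muc19 clusters at 4.80, each the lowest of the 4 arrays, and Lpo at 6.93 against 6.60 to 6.80 elsewhere. The summed signal of 9 pituitary clusters was 297 and 399 in wild type and 2370 and 1380 in the knockout, with 3 of the 9 (33.3%) higher at an unadjusted p below 0.05, compared with 3.64% of all clusters. Prl and Gh made up most of that sum, with Gh at 9.95 on knockout array 1. Pomc also had an unadjusted limma p below 0.05, with a difference of 0.51 (SE 0.188). The differences were 0.405 and 0.165 for the clusters of Cga, 0.18 for Pou1f1, 0.115 for Lhb, 0.015 for Fshb and 0.01 for Tshb. The part of this other tissue in the signals of Cd74, Lyz2 and the class II genes was not tested.

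**Figure D3:**
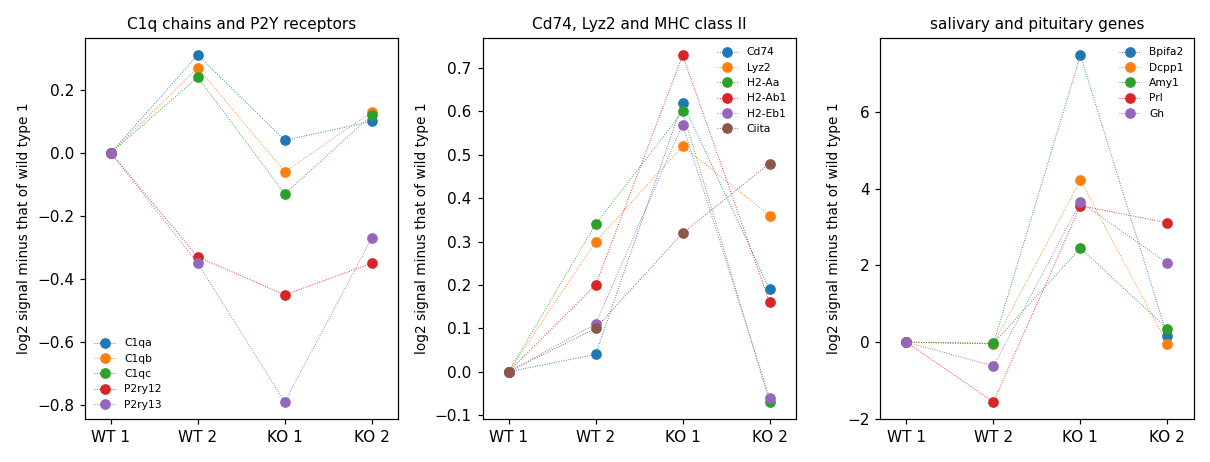
Log2 signal on each array relative to wild-type array 1 for C1q chains and purinergic receptors, for Cd74, Lyz2 and MHC class II genes, and for salivary and pituitary transcripts, where dotted lines join the values of a gene and carry no order. Bpifa2 is at 12.61 on knockout array 1 and at 5.28 on knockout array 2, and Cd74 is at 7.90 and 7.47 on the same arrays.

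Other microglia genes outside the 31 also had mostly lower means in the knockout. Of 29 clusters from 28 such genes, 5 were lower at an unadjusted p below 0.05 and 0 higher, 12 had the knockout below without overlap and 2 above, and the median was -0.105. These are 17.2% lower, 41.4% below and 6.9% above, compared with 2.31%, 16.5% and 17.7% of all clusters, and the list is described with no test. Of the 29 clusters 25 were above the median mean signal. Among all clusters above that median, 2.3% were lower, 21.9% below and 12.4% above. The median of the 29 clusters was -0.16 without knockout array 1. Emr1 (RefSeq symbol Adgre1), which encodes the macrophage antigen F4/80, had 6.33 and 6.35 in wild type and 5.62 and 6.07 in the knockout, a difference of -0.495 (SE 0.166, limma adjusted p = 0.834), which was -0.27 without knockout array 1. Cd33, a lectin that binds sialic acid, had 7.78 and 7.67 in wild type and 7.24 and 7.42 in the knockout, a difference of -0.395 (SE 0.118, limma adjusted p = 0.834). The tetraspanin Cd53, at 7.49 and 7.46 in wild type, was at 7.19 and 7.20 in the knockout, with a difference of -0.28 (SE 0.101, limma adjusted p = 0.834).

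A pair of prostaglandin enzymes made up the rest. Hpgd, which inactivates prostaglandins, had 7.61 and 7.44 in wild type and 7.21 and 7.19 in the knockout (difference -0.325, SE 0.113, limma adjusted p = 0.834). Hpgds, which makes prostaglandin D, had 5.88 and 5.86 in wild type and 5.68 and 5.48 in the knockout (difference -0.29, SE 0.117, limma adjusted p = 0.834). Without knockout array 2 the Hpgds difference was -0.19. The adjusted limma p of all 5 genes was 0.834. Sfpi1, the array's older symbol for the PU.1 gene, had 6.72 and 6.85 in wild type and 6.59 and 6.57 in the knockout, a difference of -0.205 (SE 0.108). With 1 array left out, the count of lower clusters in this list was 0 without wild-type array 1, 1 without wild-type array 2 and 2 without either knockout array.

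The ligands of microglial receptors, made by neurons and other brain cells, were compared next. Of 7 such genes 0 passed an unadjusted limma p below 0.05, and the median was -0.06, which was -0.015 without knockout array 1. Csf1 was at -0.115 (SE 0.102), its alternative Il34 at 0.04 (SE 0.103) and fractalkine, Cx3cl1, at -0.09 (SE 0.123). Of 18 clusters of genes that mark disease-associated microglia, 1 (5.56%) was higher and 0 were lower, compared with 3.64% and 2.31% of all clusters, with a median of 0.05 that was -0.01 without wild-type array 1. The higher gene was Spp1, the secreted phosphoprotein osteopontin, with 6.46 and 6.76 in wild type and 6.86 and 7.16 in the knockout (difference 0.40, SE 0.16, limma adjusted p = 0.834), or 0.25 without wild-type array 1 or knockout array 2, while the lipid carrier Apoe was at 0.055 (SE 0.103). Of 12 clusters of other border macrophage genes 0 passed in either direction, with a median of -0.065, which was -0.0325 without knockout array 1.

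Of 12 further complement clusters, 1 (8.33%) was lower and 2 (16.7%) were higher at an unadjusted p below 0.05, compared with 2.31% and 3.64% of all clusters, and the median was 0.065. Without wild-type array 1 this median was -0.0375, without knockout array 1 it was 0.137, without knockout array 2 it was -0.0075 and without wild-type array 2 it was 0.175. C3, the central protein of the cascade, had 7.10 and 7.75 in wild type and 6.88 and 6.35 in the knockout, a difference of -0.81 (SE 0.266, limma adjusted p = 0.834), which was -0.485 without wild-type array 2. C4b, which shares sequence with its paralog C4a, had 7.29 and 7.25 in wild type and 7.51 and 7.72 in the knockout (difference 0.345, SE 0.119, limma adjusted p = 0.834). Cfb, factor B of the alternative pathway, lay within the range of the Y-linked clusters in wild type, so its fold is not well defined. It had 5.32 and 5.18 in wild type and 5.46 and 5.65 in the knockout (difference 0.305, SE 0.122, limma adjusted p = 0.834). Among 14 inflammatory genes, of cytokines and chemokines and also of Toll-like receptors, an oxidase chain (Cybb) and nitric oxide synthase (Nos2), 11 differences were above 0, with a median of 0.0875. Both knockout signals lay above wild type in 6 (42.9%) and below in 2 (14.3%), compared with 17.7% and 16.5% of all clusters. Il6, 1 of the 6, had signals of 2.80 to 3.05, below the lowest Y-linked signal of 3.49. Of the 14 clusters 4 were above the median mean signal. Among all clusters above that median the knockout lay above in 12.4%, a smaller share than over the array. At an unadjusted p below 0.05, 1 of the 14 was higher and 0 were lower. This was the chemokine Ccl5, with 6.13 and 6.18 in wild type and 6.58 and 6.67 in the knockout (difference 0.47, SE 0.105, limma adjusted p = 0.834). Over all 98 clusters of these other pathway lists 6 (6.12%) were lower, 5 (5.1%) were higher, compared with 2.31% and 3.64% of all clusters, and 0 passed the adjusted limma test. Of the 11 genes named here for an unadjusted p below 0.05, Ccl5 alone kept it whichever array was left out.

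**Figure D4:**
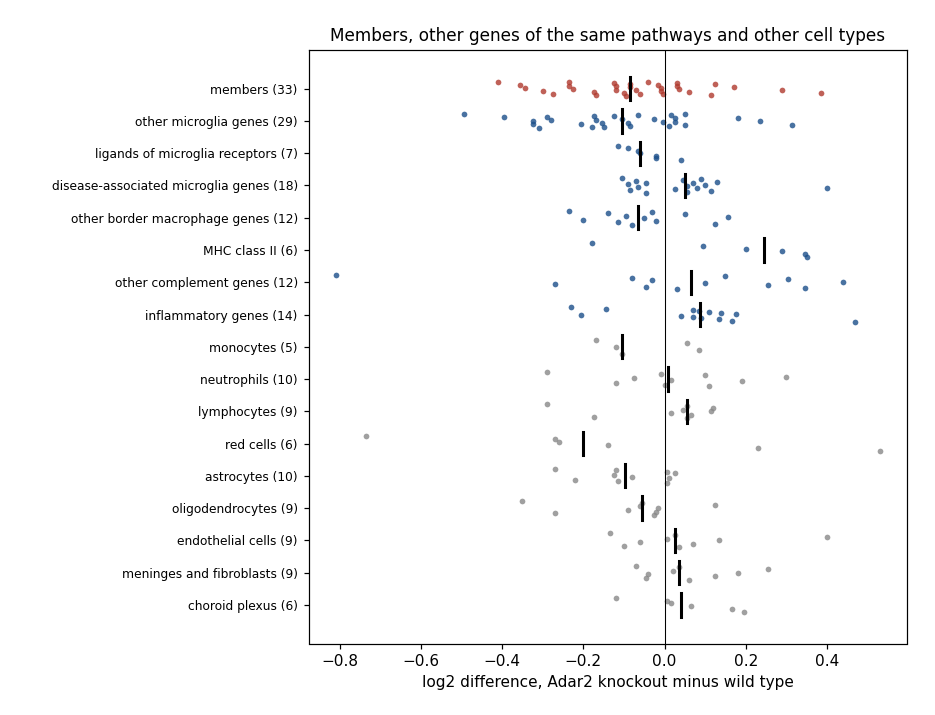
Log2 difference, knockout minus wild type, of every cluster in the 33 members, the 7 lists of related pathway genes and 9 lists of other cell types, with a bar at each median. The medians are -0.085 for the members, -0.105 for other microglia genes and 0.245 for MHC class II.

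Markers of other cells of brain and blood were read beside these values. Monocyte clusters (5) had a median difference of -0.105, which was 0.095 without knockout array 1 and 0.035 without wild-type array 2. Their summed linear signal was 327 and 373 in wild type and 324 and 351 in the knockout. Vcan and Ly6c2 had the highest signals of the list, and the Ly6c2 cluster has probes that can cross-hybridize. The median of the 4 clusters other than Ly6c2 was -0.025. Neutrophil clusters (10) had a median of 0.0075, with summed signals of 477 and 428 in wild type and of 467 and 455 in the knockout. No cluster of either list passed an unadjusted limma p below 0.05. Neutrophil signals ran from 3.84 to 6.89, mostly within the range of the Y-linked clusters. Those of the monocyte genes Ccr2 and Plac8 lay within it on every array. The values of these 2 lists therefore say little of neutrophils or monocytes. Red cell clusters (6) had a median of -0.20, which was 0.122 without knockout array 1, and their summed signal of 5090 on knockout array 1 was the lowest of the 4 arrays, which ranged up to 7990. Negative medians were also found outside the myeloid lists, at -0.0975 with 1 lower for astrocyte clusters (10), which was -0.0575 without knockout array 1, and -0.055 with 2 (22.2%) lower for oligodendrocyte clusters (9), compared with 2.31% lower over the array. Both knockout signals lay below wild type in 5 of the 10 astrocyte and 3 of the 9 oligodendrocyte clusters (33.3%), compared with 16.5% of all clusters, and these shares were no smaller than those of the microglia and macrophage clusters. With quantile normalization the astrocyte median was -0.06 with 0 lower and the oligodendrocyte median -0.0162 with 1 lower, and with the replicate number as a block 0 were lower in either list. Lymphocyte signals ran from 3.93 to 5.94, mostly within the range of the Y-linked clusters, so their values say little of lymphocytes. The median was 0.055 for these 9 clusters, 0.025 for 9 endothelial, 0.035 for 9 meningeal and 0.04 for 6 choroid plexus clusters. At an unadjusted p below 0.05, 1 red cell cluster (16.7%) and 1 lymphocyte cluster (11.1%) were lower and 1 endothelial cluster (11.1%) was higher. By that rule 2.31% of all clusters were lower and 3.64% higher. With quantile normalization, loess normalization or the block, 0 red cell clusters were lower, and with the block 1 was higher. When each array in turn was left out, the medians of the neutrophil, oligodendrocyte, lymphocyte, endothelial, meningeal and choroid plexus lists took both signs. The part of these cell types in the values of the microglia and macrophage genes was not tested.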

How the data were processed

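Whole-brain RNA was measured on 4 Affymetrix arrays, 2 per genotype. The authors deposited normalized log2 signals for 33793 clusters, given to 2 decimals, and the submitters' processing notes name RMA and Affymetrix Expression Console. RMA equalizes signal distributions, so a shift of all transcripts would not be seen. The genome build of the array coordinates is not given in the sources used here. The authors' own log ratio, fold change and p-value columns were not used. Genotypes were compared by two-sided moderated tests (limma 3.58.1, R 4.3.3) without further terms, adjusted by Benjamini-Hochberg over all clusters, with no filter. The code was tested on simulated data. The number of arrays limits the precision, and p-values measure only the spread between these samples, described in the methods as 2 mice per genotype.

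All members were named. Of the related pathway lists, genes with an unadjusted p below 0.05 and genotypes that did not overlap were named, and otherwise examples. MHC class II chains and salivary, pituitary and monocyte genes were named after their values were seen. Members and lists were chosen with earlier results of these data known. Emr1 and Sfpi1 were matched through RefSeq synonyms, Sfpi1 after the table's symbols were seen, and the promoter motif and the comparison with bright clusters were added once values were known. The 13 alternatives covered normalization, filters, variance models, the replicate number as a block and leaving out each array. A gene that the rule would have named as an example is not reported here.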

Additional observations from a re-analysis of the deposited data

How the results depend on the processing

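No member passed an adjusted limma p below 0.05 in any of the 13 alternatives, and 1 to 6 passed an unadjusted p below 0.05. The count of 2 became 5 with median centring (Csf1r, Fcer1g and Trem2 were lower too), 4 among clusters above the median signal (3 lower, and Cd74 higher) and 6 with an intensity trend in the variance (5 lower, and Cd74 higher). It was 2 with quantile or loess normalization, where Olfml3 was lower, Cd74 higher and Cd68 no longer past the threshold. The median difference of -0.085 was -0.125 with median centring, which moved the median of all clusters from 0.005 to -0.035, and -0.0575 and -0.0517 with quantile and loess normalization. With the replicate number as a block, 2 members passed and the median was -0.085. Same-numbered arrays had a correlation of deviations of 0.0516 over all clusters, from 2 pairs, so they were not treated as paired, and the block changed no call among the members. Leaving out 1 array gave counts of 1 to 4 and medians of -0.115 to -0.025, with the lone array of a genotype assumed to vary like the other genotype's pair. Olfml3 had an unadjusted p above 0.05 without wild-type array 1 or knockout array 2, and Cd68 without wild-type array 2 or either knockout array. Fcer1g passed without wild-type array 1, Ly86, P2ry12 and Lyz2 without wild-type array 2, and Cd74 without knockout array 2. In each case the cause was not tested.

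Signs turned only for members with p above 0.05. With median centring Tmem119 was at -0.005, Gpr34 at -0.01 and Fcgr3 at -0.01. Quantile normalization gave -0.02 for Gpr34 and 0.035 for Tyrobp, loess gave -0.0137 and 0.0391, and Irf8 was 0.0375 with 1 value per gene. With 1 array left out the difference ranged from -0.175 to 0.055 for Cx3cr1, -0.035 to 0.105 for Tmem119, -0.05 to 0.11 for Gpr34, -0.205 to 0.015 for Selplg and -0.155 to 0.015 for its second cluster. It ranged from -0.095 to 0.015 for Irf8 and -0.055 to 0.285 for its second cluster, from -0.24 to 0.07 for C1qa, -0.235 to 0.035 for C1qb and -0.195 to 0.185 for Tyrobp. For Fcgr3 the range was -0.02 to 0.08, for Ctss -0.245 to 0.075, for Ctsd -0.125 to 0.245, for Aif1 -0.07 to 0.05, for Itgam -0.075 to 0.055 and for Mpeg1 -0.09 to 0.06. Of the 11 other named genes, 86 of 97 values under other settings and 12 of 44 with 1 array left out stayed on their side of the unadjusted threshold, and none changed sign. Among them, p was above 0.05 with the block for Hpgds, C4b, Cfb and C3. Spp1 lost its unadjusted call with median centring and loess, Cfb with all 3 normalizations, and Hpgds and Cfb with the intensity trend. The medians of other lists moved with the scaling too. Under median centring, quantile and loess normalization the median was -0.14, -0.0563 and -0.0504 for C1q (-0.10 before), -0.1, -0.0281 and -0.0156 for the ligands (-0.06), 0.01, 0.0175 and 0.0186 for disease-associated genes (0.05), 0.025, 0.0188 and 0.0236 for other complement genes (0.065), and 0.0475, 0.0497 and 0.0543 for inflammatory genes (0.0875). The meningeal, endothelial and neutrophil medians were -0.005, -0.015 and -0.0325 under median centring. Arrays give no depth, and the members whose signals lay within the Y-linked range, Cd163 and the second Irf8 cluster, were limited by background.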
